A study of Mus musculus with 44 samples.

Results

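Matrix metalloproteinases (MMPs) and the tissue inhibitors that block them (TIMPs) were examined in liver RNA sequencing of 3 mouse genotypes on 3 diets. The genes were a fixed list of 10, taken by symbol and chosen with earlier results of these data known. They were the inhibitors Timp1, Timp2 and Timp3, the collagenases Mmp8 and Mmp13, and the gelatinases Mmp2 and Mmp9. The others were the secreted enzyme Mmp19 and the membrane-type enzymes Mmp14 and Mmp15. All 10 were found among the 35249 genes of the count table. Of these 10, 8 passed the filter on low counts and were tested with 14862 genes in all, and Mmp8 and Mmp9 did not pass.

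The mice were wild type (WT), Ripk3 knockout (Ripk3-/-, Ripk3KO) or Mlkl knockout (Mlkl-/-, MlklKO). RIPK3 is a kinase that activates MLKL, the protein that breaks the plasma membrane in necroptosis. Feeding began at 2 months of age and lasted 6 months. Controls ate chow, and the other mice ate food without enough choline that was either low in fat (CD-LFD) or high in fat (CD-HFD). The 44 libraries, 1 per mouse, held 6 WT mice on each diet, 6, 3 and 4 Ripk3KO mice and 6, 4 and 3 MlklKO mice on control, CD-LFD and CD-HFD. Choline deficiency is a model of fatty liver, in which export of fat from hepatocytes fails. The labels used here give no strain, sex, litter, batch or collection time, and do not say which exons either knockout removes, so that p-values measure the spread between these mice.

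MMPs are zinc endopeptidases that are made as inactive proenzymes and cut collagens, basement membrane and other extracellular proteins. TIMPs bind the active site of most MMPs in tight complexes, and the balance of both families governs how fast matrix is turned over. In injured liver these genes are known mainly from activated stellate cells, macrophages, neutrophils and endothelium, and Timp1 is widely used as a marker of fibrogenic injury. MMP14, TIMP2 and the proenzyme of MMP2 form a complex at the cell surface in which MMP2 is activated.

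Promoter sequences of 4 members are printed because Timp1 and Mmp13 were at or near 0 counts in WT liver on the control diet and rose on both choline-deficient diets, whereas Timp2 and Mmp14 were already present on the control diet. RefSeq (GRCm38.p6) gave a window for 7 of the 10 members, and those of Mmp2, Mmp9 and Mmp19 were not analysed here. Capitals mark matches to any of 6 motifs, searched on both strands. TGANTCA is the site of AP-1 factors, and TGAGTAA was taken as an AP-1-like variant. The ETS family motif was AGGAAGT, and the RUNX family motif was AACCACA. The TATA box was searched as TATAAA, and the GC box of Sp1-type factors was searched as GGGCGG. The sequences run 5′ to 3′ on the strand of the gene and end at the base before the RefSeq start, except the second Timp1 stretch, which lies after it.
Timp1, chrX:20869966-20870165, plus strand: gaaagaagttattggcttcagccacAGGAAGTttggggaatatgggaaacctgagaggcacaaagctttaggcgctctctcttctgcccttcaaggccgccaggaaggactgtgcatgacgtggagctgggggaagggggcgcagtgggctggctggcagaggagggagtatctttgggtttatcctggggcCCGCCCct
Timp1, chrX:20870181-20870210, plus strand: cggtgggtggaTGAGTAAtgcgtccaggaa
Mmp13, chr9:7272374-7272513, plus strand: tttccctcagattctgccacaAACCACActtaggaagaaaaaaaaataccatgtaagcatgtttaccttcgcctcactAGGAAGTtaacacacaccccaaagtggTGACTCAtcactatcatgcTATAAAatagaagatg
Timp2, chr11:118355412-118355561, minus strand: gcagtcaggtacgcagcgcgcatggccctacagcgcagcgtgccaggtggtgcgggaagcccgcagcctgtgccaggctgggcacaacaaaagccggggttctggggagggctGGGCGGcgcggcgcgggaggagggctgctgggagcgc
Mmp14, chr14:54431448-54431597, plus strand: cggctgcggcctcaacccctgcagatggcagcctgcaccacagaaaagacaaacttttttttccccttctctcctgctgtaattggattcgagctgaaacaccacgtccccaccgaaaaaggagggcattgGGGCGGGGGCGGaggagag

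In Mmp13 the RUNX, ETS, AP-1 and TATA matches began at -119, -62, -35 and -16 from the start. In Timp1 the ETS match began at -175 and the AP-1-like match at 27 after the start. Over all 32851 RefSeq windows of 300 bases, 7.81% held the AP-1 motif, 2.68% the AP-1-like motif, 9.35% the ETS motif, 5.27% the RUNX motif, 13.6% the TATA box and 35.7% the GC box. Of the 7 member windows, that of Mmp13 alone held the AP-1 or the RUNX motif, and those of Timp2, Timp3, Mmp14 and Mmp15 held the GC box and no other of the 6. The window of Mmp8, a gene scarce in every group, held an ETS match at -221 and a TATA match at -3. Timp1 also held a GC box, at -8. The AP-1 motif TGANTCA and the AP-1-like motif did not overlap another motif in these windows, while the 2 GC boxes of Mmp14 abut. These matches describe letters only.

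The deepest library, WT CD-LFD replicate 3, held 88204703 counts, and the rest held between 2476268 and 12471844. All 10 hepatocyte markers were present in every group, and their summed level was 92000 to 160000 CPM (counts scaled to the library total) in WT control livers and 59200 to 94800 in WT CD-HFD livers. Ripk3 had 0 to 2 counts in Ripk3KO libraries except control replicate 5, which had 9. That is 1.26 CPM, inside the WT control range of 0.511 to 4.89, so Ripk3 does not bear out the label of this library. Mlkl counts were present in every MlklKO library. On CD-HFD the library labelled MlklKO CD-HFD replicate 1 had 12.5 CPM, against 4.83 and 2.80 CPM in the other MlklKO libraries and 14.3 to 17.7 CPM in WT, so that it goes against its label. On control, WT (2.28 to 6.15 CPM) and MlklKO (1.46 to 3.04 CPM) overlapped, so Mlkl checks no single label there. Without it and Ripk3KO control replicate 5, 6 in place of 7 members were called in the MlklKO comparison of CD-HFD with control, and 6 in the Ripk3KO comparison of either diet with control, as with them. The MlklKO rise that was lost was that of Timp3.

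Levels above and below are CPM after TMM scaling, which adjusts each library for its composition. A member was called when its adjusted p in edgeR's quasi-likelihood test with Benjamini-Hochberg adjustment was under 0.05, and log2 differences carry the standard error (SE) of that fit.

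In WT liver, 7 of the 8 tested members differed between CD-HFD and control: Timp1, Timp2, Mmp2, Mmp13, Mmp14 and Mmp15 rose and Mmp19 fell. Of all genes tested, 23.5% rose and 24.1% fell in this comparison. The list was chosen with earlier results of these data known, so the excess of rises over that share is no test of the members. The 1 fall of 8 is not above the background share. The background split depends on the scaling: with libraries scaled by size alone, 45.8% of all genes rose and 6.86% fell. The median log2 difference was 1.78 over the 8 members and -0.07 over all genes. Timp1 and Mmp13 had at most 3 counts in any WT control library and passed the count filter only through groups where they were higher. Their rises were thus favoured by the filter, which limits this median and all counts of rises from control given here. On CD-LFD, 5 members rose (Timp1, Mmp2, Mmp13, Mmp14, Mmp15) and Timp3 fell, where 13.7% of all genes rose and 14% fell. Between the choline-deficient diets, Timp1, Timp2, Timp3, Mmp2 and Mmp14 were higher on CD-HFD than on CD-LFD and none was lower, where 13.7% of all genes were higher and 7.4% lower. Scaled by size alone, 27.9% of all genes rose and 4.96% fell on CD-LFD, and 20.6% were higher and 3.36% lower on CD-HFD than on CD-LFD.

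Rises were also called in both knockouts. In Ripk3KO liver 6 members rose on CD-HFD (24.6% of all genes rose) and 6 on CD-LFD (14% rose), and none was called lower (21.7% and 10.1% fell). In MlklKO liver 7 members rose on CD-HFD (24.9% of all genes rose) and none fell (20.3% fell), and on CD-LFD 4 rose (19.7% rose) and Timp3 and Mmp19 fell (18.3% fell). CD-HFD exceeded CD-LFD for 3 members in Ripk3KO (5.75% of all genes were higher, 3.08% lower) and for 5 in MlklKO (14.6% higher, 9.14% lower), and no member was lower. Scaled by size alone, the shares of all genes higher and lower were 46.2% and 4.96% for CD-HFD against control, 26.3% and 3.45% for CD-LFD against control and 9.15% and 1.15% for CD-HFD against CD-LFD in Ripk3KO. In MlklKO they were 42.8% and 4.89%, 25.1% and 12.9%, and 32.1% and 2.6% in the same order. The Ripk3KO count for CD-HFD against CD-LFD was 1 without CD-LFD replicate 1, CD-LFD replicate 2 or CD-HFD replicate 5. The comparisons of the 2 diets within a genotype share their control mice.

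**Figure D1:**
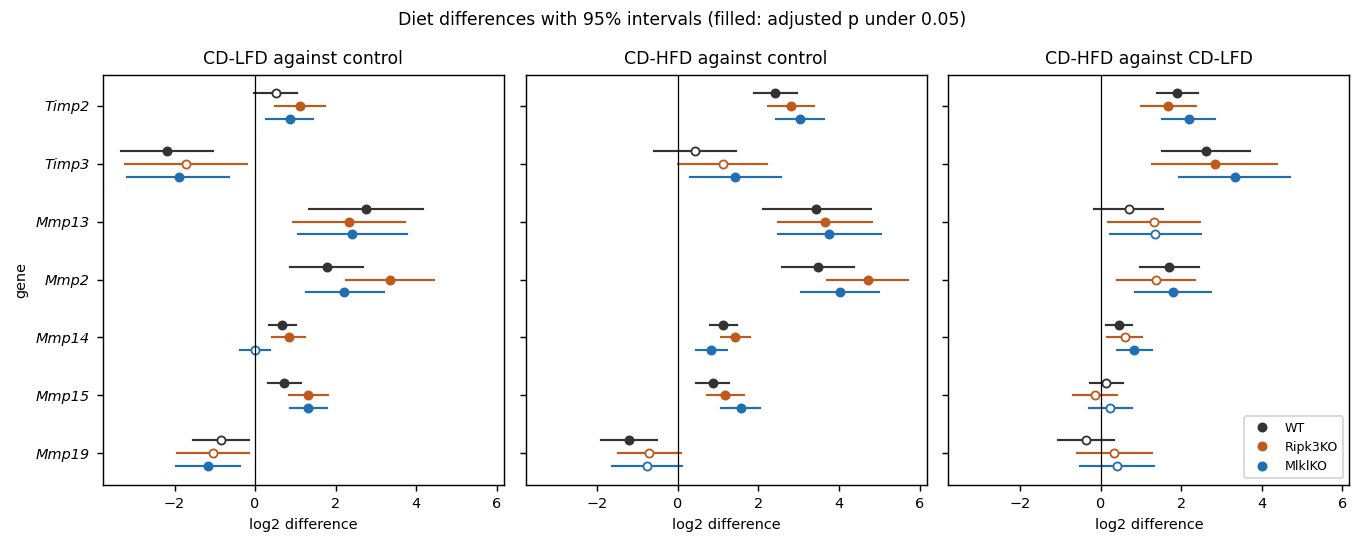
Log2 differences (horizontal axis) of 7 members for 3 diet comparisons, with 95% intervals, by genotype. Filled points passed an adjusted p of 0.05. Timp1 is left out because the WT control libraries held 0 counts. Timp3 lies left of 0 on CD-LFD and right of 0 between CD-HFD and CD-LFD in all 3 genotypes.

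Timp1 encodes the secreted inhibitor most often measured in liver fibrosis. On the control diet all 6 WT libraries held 0 counts, where 3 counts, the limit that a count of 0 allows, would be 1.37 CPM in the shallowest. On CD-LFD the 6 WT libraries ran from 1.34 to 5.32 CPM with a median of 2.44, and on CD-HFD from 9.67 to 23.2 with a median of 11.4. The 3 WT diet groups did not overlap.

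Against that limit, mean Timp1 was at least 2.1-fold higher on CD-LFD (adjusted p = 9.6e-07, edgeR) and at least 9.5-fold higher on CD-HFD (adjusted p = 4.61e-12, edgeR). CD-HFD exceeded CD-LFD by a log2 difference of 2.22 (SE 0.344, adjusted p = 8.87e-06, edgeR), or 4.67-fold. WT CD-HFD replicate 6 was the high library at 23.2 CPM, and the other 5 lay between 9.67 and 12.5.

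The knockouts reached similar Timp1 levels on the choline-deficient diets. The 4 Ripk3KO CD-HFD libraries read 14.0, 9.65, 8.65 and 10.7 CPM and the 3 labelled MlklKO CD-HFD read 7.66, 11.6 and 10, all within or just under the WT range. On CD-LFD the Ripk3KO libraries read 4.58, 1.90 and 4.61 and the MlklKO libraries 3.56, 2.98, 1.92 and 2.23. Genotypes overlapped on both diets. Against their own controls the rise on CD-HFD was 5.24 on the log2 scale in Ripk3KO (SE 0.521, adjusted p = 2.21e-10, edgeR), from 9 counts in 6 control libraries, and 2.90 in MlklKO (SE 0.436, adjusted p = 1.1e-06, edgeR). On CD-LFD it was 3.75 in Ripk3KO (SE 0.599, adjusted p = 1.79e-05, edgeR), and in MlklKO the difference of 1.06 did not pass (adjusted p = 0.0596, edgeR). By edgeR, that Timp1 difference was called with the replicate number as a block (1.15, adjusted p = 0.0443), with library size only (1.2, adjusted p = 0.046) and without MlklKO control replicate 1 (1.45, adjusted p = 0.0154). Between CD-HFD and CD-LFD the Ripk3KO difference of Timp1 was 1.49 (SE 0.457, adjusted p = 0.0332, edgeR). This call was lost with the replicate number as a block (1.38, adjusted p = 0.0552, edgeR) and on leaving out any of 5 of the 7 libraries. In the ranking of the 9 group means, the 3 CD-HFD groups came first at 13.0 ± 5.13 (SD, n = 6), 10.7 ± 2.31 (n = 4) and 9.76 ± 1.99 (n = 3), and neighbours among them differed by less than their SD.

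**Figure D2:**
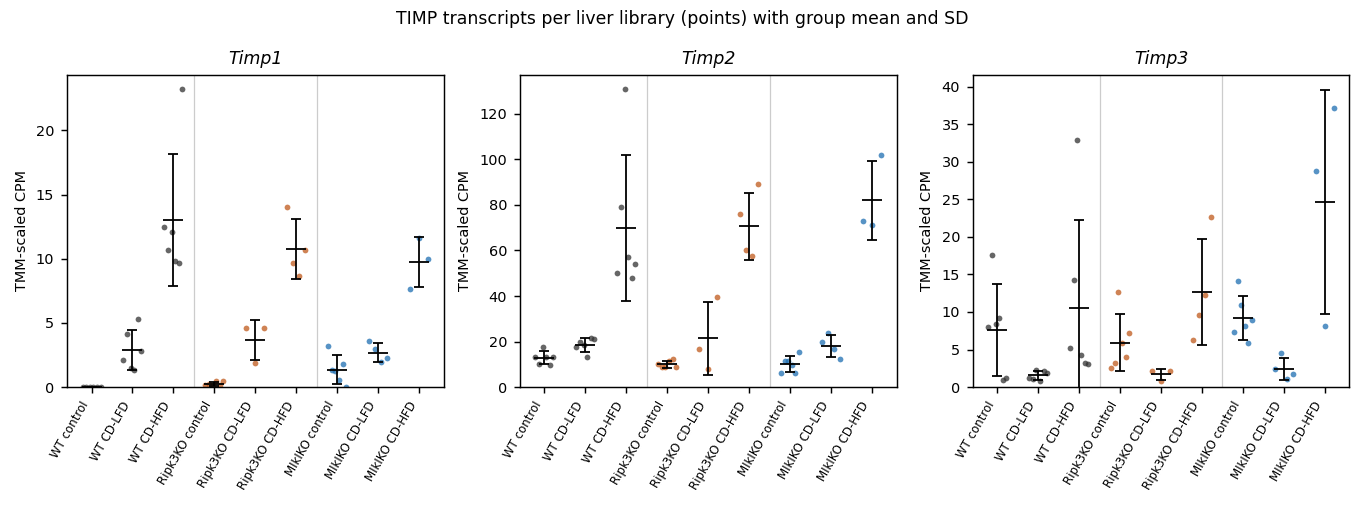
TMM-scaled CPM (vertical axis) of Timp1, Timp2 and Timp3 in each library (points) by genotype and diet, with the group mean and SD. WT control libraries are at 0 for Timp1, and Timp3 is lowest in the CD-LFD groups.

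Timp2 encodes the inhibitor that also presents proMMP2 to MMP14. Its levels in WT liver ran from 9.59 to 17.5 CPM on control (median 13.2), from 13.2 to 21.6 on CD-LFD (median 19.1) and from 47.8 to 131 on CD-HFD (median 55.5). CD-HFD stood clear of both other diets, which overlapped each other. The log2 difference to control was 2.42 on CD-HFD (SE 0.265, adjusted p = 6.75e-10, edgeR), or 5.34-fold, and 0.51 on CD-LFD (SE 0.262, adjusted p = 0.142, edgeR). The CD-LFD difference was called by edgeR with library size only (0.83, adjusted p = 0.0221) and with the compared groups alone (0.57, adjusted p = 0.0455). Replicate 3 was the high WT CD-HFD library, and the others lay at or under 79.2.

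The Timp2 step between the choline-deficient diets was seen in each genotype. It was 1.90 on the log2 scale in WT (SE 0.251), 1.68 in Ripk3KO (SE 0.338) and 2.18 in MlklKO (SE 0.325), with edgeR adjusted p-values of 3.31e-07, 0.000906 and 4.82e-06. Ripk3KO CD-HFD libraries read 76.1, 60.2, 57.5 and 89.0 CPM and those labelled MlklKO CD-HFD 73.1, 71.1 and 102. Ripk3KO CD-LFD was uneven at 16.7, 8.01 and 39.4, and without the library at 39.4 the Timp2 difference of CD-LFD to control fell from 1.12 to 0.29 with an edgeR adjusted p of 0.621, and that of CD-HFD to CD-LFD went from 1.68 to 2.53. Marker sums took the same order as Timp2 in these 3 libraries, with macrophage sums of 477, 243 and 886 CPM, cholangiocyte sums of 228, 92.1 and 607 CPM and stellate cell sums of 402, 323 and 579 CPM, and no marker of these lists was at 0 in the group. The hepatocyte sums took the opposite order, 95900, 136000 and 77400 CPM. Their part in the Timp2 and Mmp2 values of these libraries was not tested. In MlklKO the call of Timp2 on CD-LFD against control was lost without CD-LFD replicate 2 (0.70, adjusted p = 0.0774, edgeR).

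Timp3 encodes the inhibitor that stays bound to matrix and also blocks ADAM17, the enzyme that sheds TNF. In WT and MlklKO liver it was lower on CD-LFD than on control, and in all genotypes it was higher on CD-HFD than on CD-LFD. In WT liver it ran from 0.913 to 17.6 CPM on control (median 8.17), from 0.835 to 2.30 on CD-LFD (median 1.56) and from 3.10 to 32.9 on CD-HFD (median 4.74). The CD-LFD and CD-HFD groups did not overlap, while the control group overlapped both.

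The fall on CD-LFD was 2.18 on the log2 scale in WT (adjusted p = 0.00347) and 1.90 in MlklKO (adjusted p = 0.0158), both by edgeR, which left 0.22 and 0.268 of the control level. The MlklKO call was lost without CD-LFD replicate 3 (-1.69, adjusted p = 0.0526, edgeR). In Ripk3KO the difference was -1.72 (SE 0.748, adjusted p = 0.087, edgeR), with CD-LFD libraries at 2.08, 0.843 and 2.19 CPM below every control library of 2.53 to 12.7. This difference was called by DESeq2 (-1.72, adjusted p = 0.0477), by edgeR with the compared groups alone (-1.67, adjusted p = 0.0495) and by edgeR with the replicate number as a block (-1.98, adjusted p = 0.0457). From CD-LFD to CD-HFD Timp3 rose by 2.61 in WT (adjusted p = 0.000394), 2.83 in Ripk3KO (adjusted p = 0.0144) and 3.32 in MlklKO (adjusted p = 0.000404), all by edgeR. Without WT CD-HFD replicate 3 the WT rise was 1.79 (adjusted p = 0.00856, edgeR). In Ripk3KO this call was lost when CD-LFD replicate 1 or 2 or CD-HFD replicate 5 was left out, with edgeR adjusted p-values of 0.0542, 0.0931 and 0.0651.

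Against control, CD-HFD Timp3 was not called in WT (0.42, SE 0.501, adjusted p = 0.507) or Ripk3KO (1.11, SE 0.543, adjusted p = 0.0909) and was called in MlklKO (1.42, SE 0.561, adjusted p = 0.0356), by edgeR. The WT value rests on single libraries: it was -0.39 without CD-HFD replicate 3 (adjusted p = 0.521) and 0.83 without control replicate 2 (adjusted p = 0.205), by edgeR. The Ripk3KO difference was 0.67 without CD-HFD replicate 5 (adjusted p = 0.376), and it was called without control replicate 3 (1.5, adjusted p = 0.0317), with library size only (1.64, adjusted p = 0.0115) and with the compared groups alone (1.16, adjusted p = 0.0341), by edgeR. The 3 libraries labelled MlklKO CD-HFD read 28.7, 8.09 and 37.1 CPM, and the MlklKO call was lost without CD-HFD replicate 1 (1.26, adjusted p = 0.103, edgeR) or 4 (0.95, adjusted p = 0.252, edgeR). It was also lost without MlklKO control replicate 1, 4 or 5 (edgeR adjusted p = 0.0583, 0.0557 and 0.0662). The interactions of knockout and diet were not called for Timp3 in any of the 4 tests, with adjusted p-values of 0.52 to 0.948 by edgeR. In WT control liver, replicates 5 and 6 held 0.913 and 1.22 CPM of Timp3 and the other 4 between 8.01 and 17.6. Within WT control the same pair had the largest shares of counts in predicted genes, 0.557% and 0.757% against 0.321% to 0.367%. Without the pair the WT difference in Timp3 was -2.63 on CD-LFD (adjusted p = 0.00026, edgeR) and -0.03 on CD-HFD (adjusted p = 0.963, edgeR), so that neither call changed. Timp3 shares 21.3% of its exon bases with Syn3 on the opposite strand, and the counting's strand setting is not given in the sources used here. Syn3 itself held 0.255 to 0.904 CPM in the group means.

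Mmp13 encodes the main interstitial collagenase of the mouse, which cuts the fibrillar collagens. It was scarce, and it rose on both choline-deficient diets in every genotype. The 6 WT control libraries held 4 counts together, 4 of the 6 being at 0. On CD-LFD the WT libraries ran from 0.698 to 2.90 CPM (median 0.912) and on CD-HFD from 1.13 to 2.51 (median 1.80). CD-HFD lay above every control library, and CD-LFD and CD-HFD overlapped.

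From the counts, the ratio of CD-HFD to control was 11.9 with an exact 95% counting interval of 4.51 to 44.6, and that of CD-LFD was 5.84 with an interval of 2.21 to 21.8. The edgeR adjusted p-values were 4.07e-05 and 0.00309. Of the 4 WT control counts 3 came from replicate 6, and without it the fitted log2 differences went from 3.44 to 4.95 on CD-HFD and from 2.75 to 4.26 on CD-LFD. Rises to CD-HFD were called at 3.65 on the log2 scale in Ripk3KO (SE 0.577, adjusted p = 1.64e-06, edgeR) and 3.76 in MlklKO (SE 0.635, adjusted p = 5.45e-06, edgeR), the latter 4.36 without MlklKO control replicate 2. The difference between CD-HFD and CD-LFD was not called in WT (0.69, 95% interval -0.17 to 1.54), Ripk3KO (1.32, 0.18 to 2.46) or MlklKO (1.35, 0.23 to 2.48). The MlklKO difference, with an adjusted p of 0.0713 by edgeR, was called by DESeq2 (1.40, adjusted p = 0.0476). It was also called by edgeR with library size only (1.73, adjusted p = 0.0178), with the compared groups alone (1.33, adjusted p = 0.0249) and without CD-LFD replicate 3 (1.68, adjusted p = 0.0462).

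Mmp8 encodes the collagenase stored in neutrophil granules. It had 168 counts over all 44 libraries, and 12 libraries held none. The 6 MlklKO control libraries held 39 counts, or 1.08, 1.52, 1.13, 1.31, 1.24 and 0 CPM, and the 6 WT control libraries held 6 counts, at 0 in 4 libraries and 0.733 and 0.511 CPM in the others. The ratio was 4.57 (counting interval 1.92 to 13.2). Fitted without the count filter, the log2 difference was 2.17 (SE 0.77, adjusted p = 0.0623, edgeR), which did not pass, and DESeq2 gave an adjusted p of 0.0369. Within MlklKO, CD-LFD held 10 counts and a ratio to control of 0.31 (interval 0.138 to 0.632), with an edgeR adjusted p of 0.16.

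Mmp2 encodes gelatinase A, which digests denatured collagen and basement membrane type IV collagen and is made chiefly by mesenchymal cells. Its group means stepped up from control to CD-LFD to CD-HFD in each genotype. In WT they ran from 0 to 4.43 CPM on control (median 1.84), from 3.84 to 12.0 on CD-LFD (median 7.11) and from 13.9 to 47.8 on CD-HFD (median 21.2). CD-HFD did not overlap either other diet, and CD-LFD and control overlapped only through control replicate 3 and CD-LFD replicate 4.

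The Mmp2 rise on CD-HFD was 3.48 on the log2 scale in WT (SE 0.439, adjusted p = 1.68e-08), 4.71 in Ripk3KO (SE 0.501, adjusted p = 3.56e-10) and 4.02 in MlklKO (SE 0.476, adjusted p = 4.34e-09), all by edgeR, or 11.1-fold, 26.2-fold and 16.2-fold. Ripk3KO control livers held the least, 0.194 to 1.44 CPM, and the interaction of Ripk3KO with CD-HFD was not called (1.23, 95% interval -0.19 to 2.66, adjusted p = 0.552, edgeR). On CD-LFD the rises were 1.78 in WT (adjusted p = 0.00289), 3.35 in Ripk3KO (adjusted p = 1.63e-05) and 2.22 in MlklKO (adjusted p = 4e-04), by edgeR. Ripk3KO CD-LFD libraries were spread at 7.08, 1.69 and 18.1 CPM, the order they also took for Timp2, and without the library at 18.1 the rise to CD-LFD was 2.24 (adjusted p = 0.0219, edgeR). Between CD-HFD and CD-LFD the Ripk3KO difference of 1.36 was not called (adjusted p = 0.0691, edgeR), and without that library it was 2.48 (adjusted p = 0.00463, edgeR). It was also called with library size only (1.53, adjusted p = 0.046, edgeR) and with the replicate number as a block (1.60, adjusted p = 0.0304, edgeR).

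Mmp9 encodes gelatinase B, a product of neutrophils and macrophages. It stayed scarce in every group, with 202 counts over the 44 libraries and group means of 0.207 to 0.735 CPM. WT CD-HFD held 0.735 ± 0.215 CPM (SD, n = 6) and WT control 0.446 ± 0.455 (n = 6), a count ratio of 1.27 (counting interval 0.687 to 2.48). Without the count filter the edgeR adjusted p was 0.567. MlklKO CD-LFD held 6 counts against 27 in MlklKO control, with a ratio of 0.269 (interval 0.0907 to 0.664), which did not pass in edgeR (adjusted p = 0.0786) and passed in DESeq2 (adjusted p = 0.0411). Neither Mmp8 nor Mmp9 passed a test between CD-HFD and control in any genotype, with edgeR adjusted p-values of 0.492 to 1.

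Mmp19 encodes a secreted enzyme that cleaves basement membrane proteins, and it was the 1 member called lower on CD-HFD than on control in WT liver. In WT it ran from 9.53 to 59.9 CPM on control (median 46.7), from 7.72 to 43.3 on CD-LFD (median 21.7) and from 9.18 to 28.5 on CD-HFD (median 14.4). The groups overlapped because control replicates 5 and 6, at 11.4 and 9.53 CPM, lay among the CD-HFD values. The other 4 control libraries held 45.2 to 59.9.

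The WT fall on CD-HFD was 1.22 on the log2 scale (SE 0.347, adjusted p = 0.00362, edgeR), which left 0.431 of the control level, and it did not pass when libraries were scaled by size alone (-0.70, adjusted p = 0.0704, edgeR). MlklKO liver fell by 1.17 on CD-LFD (SE 0.395, adjusted p = 0.0181, edgeR), with CD-LFD libraries at 15.3, 20.3, 23.3 and 15.5 CPM and all 6 control libraries between 32.3 and 46.2. That call was lost without CD-LFD replicate 1 or 4 (-1.09 in both fits, adjusted p = 0.0593 and 0.0519, edgeR). The other diet differences from control, of -0.71 to -1.05, were not called. By edgeR, that of Ripk3KO on CD-LFD was called with the replicate number as a block (-1.30, adjusted p = 0.0255), with the compared groups alone (-1, adjusted p = 0.0437) and without control replicate 1 (-1.2, adjusted p = 0.0368). With the compared groups alone, that of MlklKO on CD-HFD was also called (-0.67, adjusted p = 0.0218, edgeR). Without WT control replicates 5 and 6 the WT CD-LFD difference went from -0.84 (adjusted p = 0.0612) to -1.26 (adjusted p = 0.00112), by edgeR. In WT CD-LFD the libraries numbered 5 and 6 also held the least Mmp19, 10.3 and 7.72 CPM against 21 to 43.3, and the largest shares of counts in predicted genes, 0.656% and 0.67% against 0.382% to 0.495%. With the WT libraries numbered 5 and 6 left out on all 3 diets, a choice made after seeing the data, the Mmp19 difference on CD-LFD was -0.90 (adjusted p = 0.0123) and that on CD-HFD -1.40 (adjusted p = 7.75e-05), by edgeR. The CD-LFD difference was also called with the replicate number as a block (-0.87, adjusted p = 0.042, edgeR). The part of whatever sets these libraries apart was not tested. Mmp19 shares 22.3% of its exon bases with Tmem198b on the opposite strand, which held 2.77 to 4.09 CPM in the group means.

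**Figure D3:**
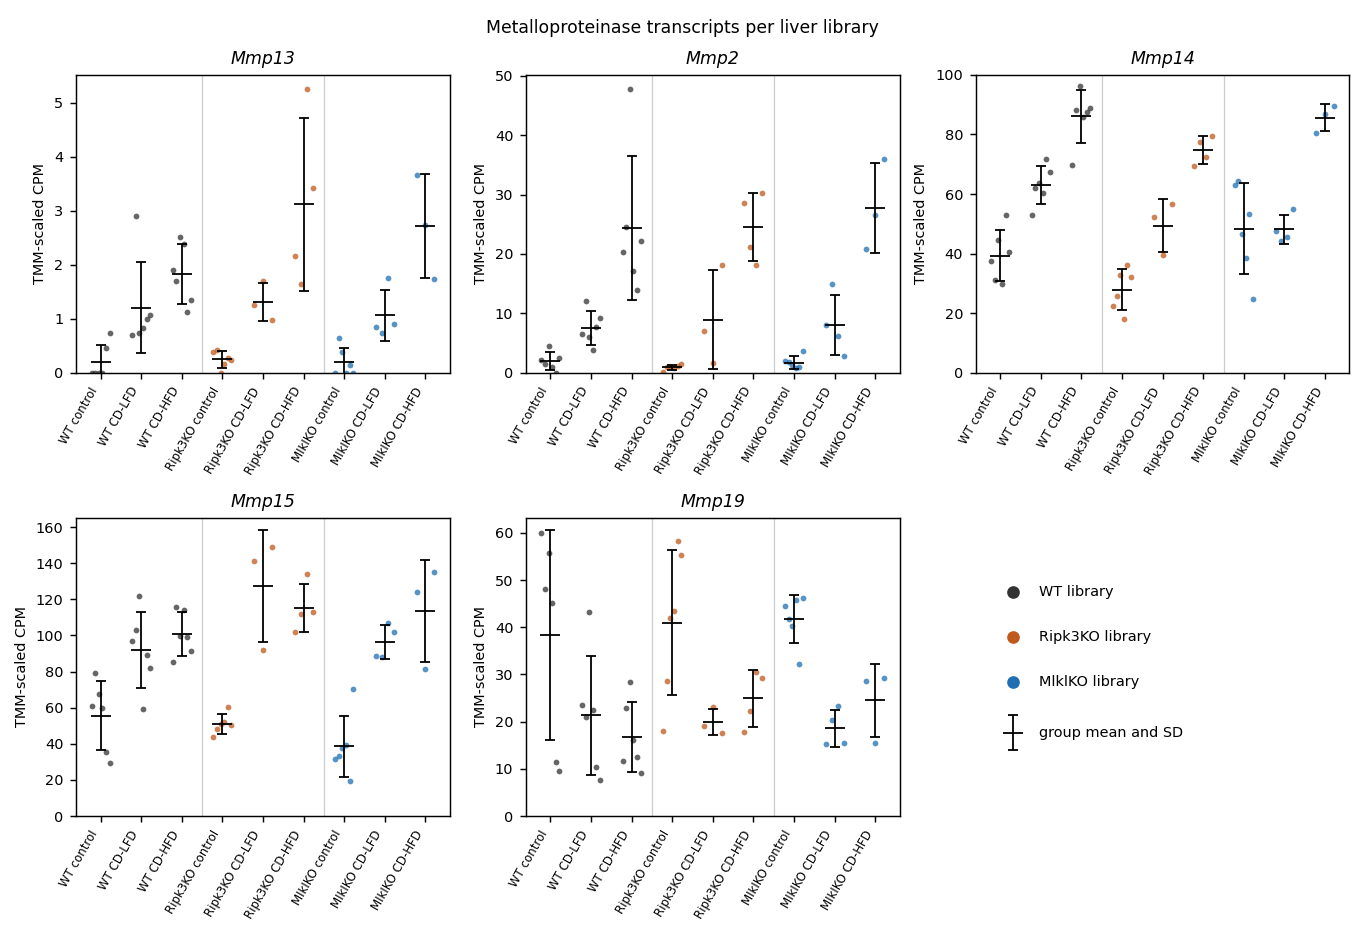
TMM-scaled CPM (vertical axis) of Mmp13, Mmp2, Mmp14, Mmp15 and Mmp19 in each library (points), with the group mean and SD. The Mmp2 mean steps up over the diets in every genotype, Mmp15 is level between CD-LFD and CD-HFD, and Mmp19 is highest on control.

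Mmp14 encodes MT1-MMP, the membrane-anchored collagenase that activates proMMP2. WT levels ran from 29.8 to 52.9 CPM on control (median 39.0), from 52.9 to 71.7 on CD-LFD (median 62.7) and from 69.6 to 96.2 on CD-HFD (median 88.0). Control and CD-HFD did not overlap, and CD-LFD touched both. The log2 difference to control was 0.68 on CD-LFD (SE 0.166, adjusted p = 0.00186, edgeR) and 1.13 on CD-HFD (SE 0.166, adjusted p = 3.46e-07, edgeR), or 2.20-fold. The step between them, 0.45 (adjusted p = 0.0396, edgeR), was lost on leaving out any of 9 of the 12 WT libraries. It was also lost without the count filter (adjusted p = 0.0929, edgeR).

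In MlklKO liver the controls of Mmp14 read 62.9, 64.5, 46.5, 38.4, 53.4 and 24.6 CPM and its CD-LFD libraries 47.7, 44.3, 45.5 and 55.0, a log2 difference of 0.00 (95% interval -0.37 to 0.36, adjusted p = 0.988, edgeR). On CD-HFD it was higher by 0.83 (SE 0.194, adjusted p = 0.000539, edgeR). The interaction of MlklKO with CD-LFD was -0.69 (SE 0.247, adjusted p = 0.0736, edgeR), which did not pass, and it was -0.82 (adjusted p = 0.00993, edgeR) without MlklKO control replicate 6, the library at 24.6. It was also called with library size only (-0.86, adjusted p = 0.0314, edgeR), by DESeq2 (-0.69, adjusted p = 0.048) and without WT control replicates 5 and 6 (-0.82, adjusted p = 0.0317, edgeR). In Ripk3KO, Mmp14 rose by 0.83 on CD-LFD (adjusted p = 0.00205) and 1.42 on CD-HFD (adjusted p = 2.23e-08), by edgeR. Its Ripk3KO step between these diets, 0.59, was not called (adjusted p = 0.08, edgeR). The step was called with library size only (0.80, adjusted p = 0.0218, edgeR), with the compared groups alone (0.59, adjusted p = 0.0165, edgeR) and by DESeq2 (0.63, adjusted p = 0.0445).

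Mmp15 encodes MT2-MMP, a second membrane-anchored proMMP2 activator, and it was level between the choline-deficient diets. In WT it ran from 29.6 to 79.2 CPM on control (median 60.6), from 59.1 to 122 on CD-LFD (median 93.1) and from 85.1 to 116 on CD-HFD (median 99.5). The log2 difference to control was 0.73 on CD-LFD (SE 0.206, adjusted p = 0.00725, edgeR) and 0.86 on CD-HFD (SE 0.207, adjusted p = 0.000679, edgeR). CD-HFD and CD-LFD differed by 0.13 (95% interval -0.28 to 0.54) in WT, -0.15 (-0.69 to 0.39) in Ripk3KO and 0.24 (-0.30 to 0.78) in MlklKO, and none was called.

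On CD-HFD Mmp15 rose by 1.17 in Ripk3KO (adjusted p = 3.85e-05) and 1.56 in MlklKO (adjusted p = 1.24e-06), by edgeR. The interactions that compare these rises with WT were 0.32 (adjusted p = 0.788) and 0.70 (adjusted p = 0.224), by edgeR, and did not pass. The MlklKO interaction of Mmp15 was called by edgeR without WT control replicates 5 and 6, on CD-HFD (0.96, adjusted p = 0.0403) and on CD-LFD (0.86, adjusted p = 0.0445). It was also called without MlklKO control replicate 6, on CD-HFD (0.96, adjusted p = 0.032) and on CD-LFD (0.85, adjusted p = 0.0368), by edgeR. On CD-LFD without WT control replicates 5 and 6 the WT difference was 0.47 with an edgeR adjusted p of 0.0616.

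Levels of different genes were compared as FPKM, which divides the scaled CPM by exon length. On the control diet the WT means were led by Mmp19 at 10.9 ± 6.29 FPKM (SD, n = 6) and Mmp15 at 10.3 ± 3.53, neighbours that differed by less than their SDs, followed by Mmp14 at 6.61 ± 1.46 and Timp2 at 3.31 ± 0.726. Timp3, Mmp2, Mmp9, Mmp8, Mmp13 and Timp1 were each under 1 FPKM. On CD-HFD the order was Mmp15 at 18.7 ± 2.26 FPKM, Timp2 at 17.9 ± 8.19, Timp1 at 14.6 ± 5.78 and Mmp14 at 14.4 ± 1.48, then Mmp2 at 7.21 ± 3.59 and Mmp19 at 4.75 ± 2.10. Neighbours among the first 4 overlapped within their SDs, and Mmp15 and Mmp14 did not. By these means Timp1 went from the last place to the third, and Mmp19 from the first to the sixth. The third place of Timp1 is not settled against Mmp14. The Timp1 mean includes WT CD-HFD replicate 6, at 23.2 CPM against 9.67 to 12.5 in the others.

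**Figure D4:**
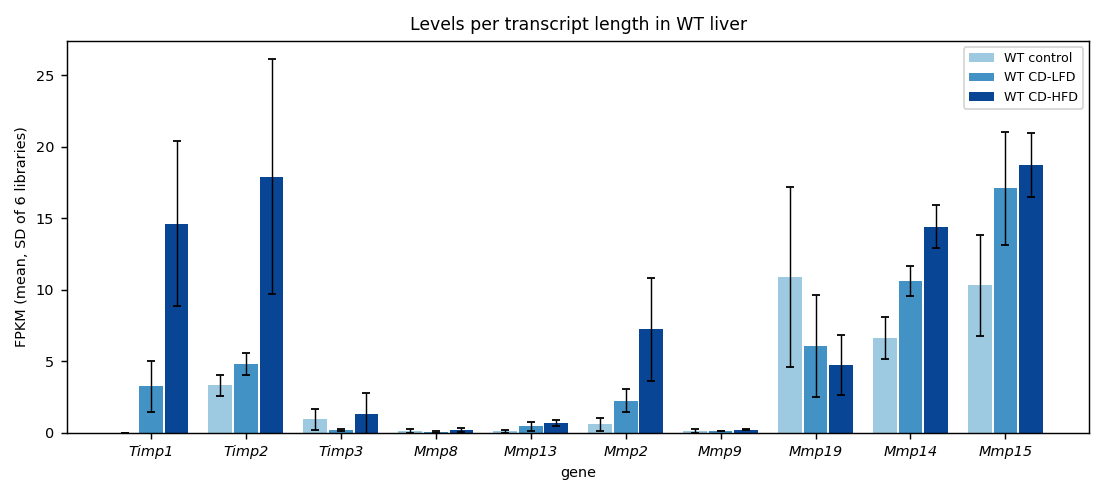
FPKM (vertical axis) of the 10 members in WT liver on 3 diets, as the mean (bars) and SD of 6 libraries. On CD-HFD, Timp1 and Timp2 stand level with Mmp14 and Mmp15, and Mmp8 and Mmp9 stay near 0.

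On the choline-deficient diets the knockouts were compared with WT directly. None of the 8 tested members was called on CD-HFD in Ripk3KO (0.377% of all genes called) or MlklKO (0%), or on CD-LFD in Ripk3KO (1.1%) or MlklKO (2.56%). These backgrounds are low, so a count of 0 of 8 is no result about the members. At an unadjusted p under 0.05 there were 2 member differences, Timp3 on CD-HFD and Mmp14 on CD-LFD, both in MlklKO. They were 1.23 (adjusted p = 0.587) and -0.39 (adjusted p = 0.287), by edgeR. DESeq2 also called 0 members in each of these comparisons. For Timp1 on CD-HFD the difference to WT was -0.28 in Ripk3KO (95% interval -0.99 to 0.42) and -0.41 in MlklKO (-1.20 to 0.38), and for Timp2 it was 0.02 (-0.52 to 0.56) and 0.24 (-0.35 to 0.82).

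On the control diet Timp1 was called higher in MlklKO than in WT (adjusted p = 0.000138, edgeR), the 1 of 8 members called where 27.1% of all genes were called. The MlklKO control libraries held 15, 6, 10, 4, 13 and 0 counts, or 3.23, 1.30, 1.26, 0.583, 1.79 and 0 CPM, against 0 counts in all 6 WT libraries, which the 1 empty MlklKO library overlaps. Ripk3KO control held 1 to 3 counts in each library, or 0.140 to 0.481 CPM, all above the WT libraries, and was not called against WT (adjusted p = 0.13, edgeR). No other member was called there by edgeR either, where 4.47% of all genes were called; Timp1, Mmp2 and Mmp14 had an unadjusted p under 0.05, and DESeq2 called Mmp14 (-0.52, adjusted p = 0.0445). When the compared groups alone were fitted, Timp1 did not pass the count filter and 0 members were called between MlklKO and WT control. Since WT was at 0 and the MlklKO mean of 1.36 CPM is at the limit that 0 counts allow in the shallowest WT library, no fold is given.

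Differences of the diet response between MlklKO and WT were called for Timp1 alone among the 8 members, on CD-LFD (adjusted p = 0.00242) and CD-HFD (adjusted p = 0.00238), by edgeR. Of all genes, 8.45% and 4.12% were called. Both calls rest on WT control at 0 counts, in a gene that passed the filter through the diet groups, so they do not show a smaller rise in MlklKO. Timp1 was not called between MlklKO and WT on CD-LFD (adjusted p = 0.989) or CD-HFD (adjusted p = 0.736), by edgeR. No member was called in the interactions of Ripk3KO with CD-LFD and CD-HFD (0.0269% and 0.478% of all genes called) by edgeR or DESeq2. Without adjustment, edgeR p-values were under 0.05 for Timp1 and Mmp2 with CD-LFD and for Timp1 with CD-HFD. The fitted sizes depend on the WT control group at 0 and are not bounds. The group means of MlklKO and WT were 1.36 and 0 CPM on control, 2.68 and 2.87 CPM on CD-LFD and 9.76 and 13.0 CPM on CD-HFD.

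Lcn2, an acute-phase gene of hepatocytes and neutrophils that dominated the neutrophil marker sum, moved with Timp1 among the MlklKO and WT control libraries. It was at 0.456 to 6.60 CPM in WT control, 182 to 818 CPM in the 5 MlklKO control libraries with Timp1 counts, and 16.3 CPM in replicate 6, which had none. In Ripk3KO control, replicates 5 and 6 held 806 and 765 CPM of Lcn2 with 0.140 and 0.481 CPM of Timp1. Of the 12 neutrophil markers, 3 of 6 tested were higher in MlklKO than in WT control and none lower. Their summed level was 21.3 to 830 CPM in MlklKO control and 3.69 to 18.6 in WT control, with Mpo at 0 in the former and Ly6g at 0 in the latter. The adipocyte marker sum moved the same way, at 24.4 to 53.4 CPM in the 5 MlklKO control libraries with Timp1 counts, 7.76 CPM in replicate 6 and 4.11 to 21 CPM in WT control. Of 2 tested adipocyte markers 1 was higher in MlklKO, with Plin1 at 0 in MlklKO and Adipoq, Plin1 and Retn at 0 in WT. The macrophage sum was 128 to 175 CPM in MlklKO, 147 in replicate 6, and 79.9 to 135 in WT, with 1 of 10 markers higher. Endothelial sums were 220 to 281 CPM in the 5 MlklKO libraries with Timp1 counts, 347 in replicate 6 and 272 to 362 in WT, with 2 of 10 markers higher and 2 lower. Stellate cell sums were 274 to 412 CPM in those 5, 438 in replicate 6 and 365 to 447 in WT, with 1 of 11 tested markers higher, and no marker of these 3 lists was at 0 in either group. In this comparison 13% of all genes were higher and 14.1% lower, so marker counts of 1 of 10, 1 of 11 or 2 of 10 lie near the background. The part of these markers in the Timp1 difference was not tested.

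MlklKO control replicate 6 stood apart for other members as well. It held 0 counts of Mmp8, the lowest Mmp14 of its group (24.6 CPM against 38.4 to 64.5) and the highest Mmp15 (70.1 against 19.5 to 39.1). Without it, Mmp14 was called higher in MlklKO than in WT control (0.43, adjusted p = 0.0268) and Mmp15 lower (-0.79, adjusted p = 0.00233), by edgeR, against 0.30 (adjusted p = 0.18) and -0.53 (adjusted p = 0.0544) with it. The Mmp15 difference was also called with RLE factors (-0.55, adjusted p = 0.0393, edgeR), with library size only (-0.58, adjusted p = 0.0329, edgeR), by DESeq2 (-0.55, adjusted p = 0.0356) and without WT control replicates 5 and 6 (-0.79, adjusted p = 0.0048, edgeR). The count of members called rose from 1 to 3.

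**Figure D5:**
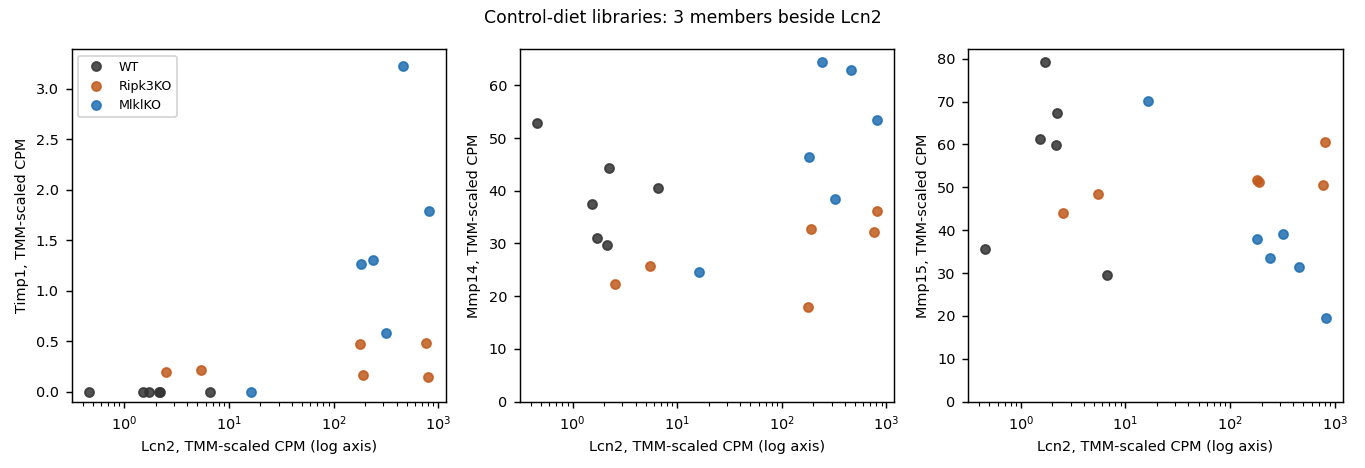
TMM-scaled CPM of Timp1, Mmp14 and Mmp15 (vertical axes) against Lcn2 (horizontal, log axis) in the 18 control-diet libraries, by genotype. The MlklKO library with the least Lcn2, 16.3 CPM, has 0 Timp1, the lowest Mmp14 and the highest Mmp15 of its group.

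The other genes of the pathway moved around the members on CD-HFD in WT liver. Of 16 other MMPs, 6 were tested, and 4 rose and none fell. The background for this and the next lists, which were chosen with earlier results known, was 23.5% of all genes rising and 24.1% falling. Scaled by size alone it was 45.8% and 6.86%. Mmp12, the macrophage metalloelastase, went from 0.219 to 231 CPM in the group means, a log2 difference of 9.92 (SE 0.405, adjusted p = 2.76e-22, edgeR), and Mmp7, matrilysin, from 0.0975 to 26.3 CPM (7.70, SE 0.773, adjusted p = 7.5e-11, edgeR). Mmp12 rose by 9.87 in Ripk3KO and 9.80 in MlklKO, and its interactions with CD-HFD were not called (adjusted p = 0.993 and 0.951, edgeR). Of 18 tested ADAM and ADAMTS proteases 13 rose and 2 fell, led by Adam8, an ADAM of leukocytes (5.33, SE 0.379), with a median of 1.35.

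The list of other inhibitors held 5 genes, Timp4 among them, of which 3 were tested, and all 3 fell: Reck, a membrane-anchored MMP inhibitor, by 1.73 (SE 0.373), Tfpi2, a serine protease inhibitor, by 1.44 (SE 0.175), and Pzp, a broad protease trap, by 1.01 (SE 0.261). In both knockouts 2 of these 3 fell on CD-HFD and none rose, where 21.7% of all genes fell in Ripk3KO and 20.3% in MlklKO. Of the 9 plasminogen activation genes 4 rose and 4 fell. Plaur, the urokinase receptor, rose by 4.71 (SE 0.601), while Plg, the plasminogen made by hepatocytes, fell by 1.18 (SE 0.339). Adamts13, the protease that cuts von Willebrand factor, fell by 1.19 (SE 0.278). Of 18 genes for matrix proteins and the enzymes that crosslink them (Lox, Loxl1 and Loxl2), 17 rose, with a median of 2.42, and Fn1 was not called (-0.58, adjusted p = 0.0933, edgeR).

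The genes nearest to a member were taken by the root mean square (RMS) difference between centred log2 profiles over the 9 group means, as a description. Mmp2 lay nearest to Col1a2, a chain of type I collagen, at 0.0975 log2 units, and next to Cd63. Mmp13 lay nearest to Thy1 (0.155) and Cd36, Timp2 to Vill (0.126) and Cyfip2, and Timp1 to Atp6v0d2 (0.311) and Cd300lb. Mmp14 lay nearest to Prkab2 (0.109), Mmp15 to Cenpa (0.141) and Mmp19 to Aggf1 (0.0964). Timp3 had no close neighbour: the nearest, Fabp5 and Fabp4, were at 0.573 and 0.612 although its own profile had an SD of 1.24. All 9 points are means of the same libraries.

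Cell type markers moved with the diets in WT liver beside the members. Of all genes, 23.5% rose and 24.1% fell on CD-HFD against control, which is the background for the marker counts that follow. The 10 markers of recruited and lipid-associated macrophages all rose on CD-HFD, from a summed 79.9 to 135 CPM on control to 1610 to 2960. The 8 cholangiocyte markers also all rose, from 62.5 to 118 to 722 to 1200 CPM. Of 11 tested stellate cell and myofibroblast markers 7 rose and 1 fell, from 365 to 447 to 468 to 707 CPM, and none of these lists had a marker at 0. Of 6 tested neutrophil markers 4 rose, from 3.69 to 18.6 to 326 to 620 CPM, with Ly6g at 0 on both diets, and of 8 tested T and NK cell markers 7 rose, from 2.69 to 5.93 to 13 to 33.5 CPM, with Ncr1 at 0 on control. Of 10 endothelial markers 7 fell, from 272 to 362 to 170 to 264 CPM, and of 7 tested Kupffer cell markers 1 rose and 3 fell. All 10 hepatocyte markers fell. The adipocyte sum went from 4.11 to 21 CPM on control to 39.4 to 63.6 on CD-HFD, where 1 of 2 tested markers rose and 1 fell, with Adipoq, Plin1 and Retn at 0 on control and Adipoq at 0 on CD-HFD. The exocrine pancreas sum went from 19.6 to 30.2 to 10.1 to 12.2 CPM, where the 1 tested marker fell, with Prss2, Pnlip and Cel at 0 on control. In bulk liver, more cells of a type and more RNA per cell cannot be told apart, and the part of cell composition in the members' differences was not tested. WT CD-HFD replicate 3, the highest library for Timp2, Timp3 and Mmp2, stood furthest apart in its sum of erythroid and blood markers, 276 CPM against 61.9 to 89.3 in the rest of its group. Its macrophage sum (2960 against 1610 to 2540 CPM) and mesothelial sum (5.35 against 1.77 to 3.92 CPM) were also the highest, while its cholangiocyte (1200 CPM) and stellate (707 CPM) sums were close to the next library, at 1180 and 704. Their part in the high values was not tested, and without replicate 3 the count of members called on CD-HFD against control was also 7. The log2 ratio of the clock genes Arntl and Dbp, which cycle in opposite phase over the day, also stood apart in replicate 3, at -2.04 against -5.76 to -4.47 in the rest of WT CD-HFD. It was -6.94 to 2.53 in WT control and -2.57 to -0.262 in WT CD-LFD. All Ripk3KO libraries lay at -6.66 to -5.18, MlklKO control at -4.72 to -3.48, MlklKO CD-LFD at -6.22 to -5.54 and MlklKO CD-HFD at -5.67 to -4.91. With this ratio as a covariate, 3 members in place of 1 were called between MlklKO and WT control. The part of collection time, which the labels do not give, was not tested.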

How the data were processed

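Liver RNA was sequenced from 44 mice in 9 groups, and the authors deposited 1 table of raw read counts per gene. The labels' protocols name a directional library kit. The submitters' processing notes name FastQC, STAR, HTSeq, edgeR and limma with the build GRCm39 (mm39), and the strand setting of the counting is not given in the sources used here. Symbols were matched for 34373 of 35249 gene IDs, and the 876 others held 0.0838% of counts.

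Counts were filtered with filterByExpr (minimum count 10), which kept 14862 genes with 99.8% of counts, scaled by TMM and fitted with edgeR 4.0.16 (R 4.3.3) as 9 group means, with quasi-likelihood F tests of 19 comparisons and Benjamini-Hochberg adjustment over all genes tested (threshold 0.05). The SE is the log2 difference divided by the square root of F. Intervals of count ratios are exact at 95% and, like limits for 0 counts (3 counts), cover counting error only. FPKM used exon lengths of GENCODE M21 (GRCm38), a build that differs from the authors', so its coordinates serve lengths, overlaps and RefSeq promoters only. The fit was tested on simulated data.

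The members and all gene lists were chosen with earlier results of these data known. All 10 members are named, as are Mmp12, the 4 largest rises and 4 largest falls in the pathway lists on CD-HFD in WT (mean log2 CPM of at least 1), and the 3 genes nearest in profile or fewer. Pzp, Fn1, Lcn2 and overlapping genes were named after their values were seen. Alternatives were RLE factors, library size only, no filter, a robust fit, the compared groups alone, a clock-gene covariate, a replicate block, DESeq2 1.42.0 and leaving out libraries. The labels do not say that replicate numbers pair mice. The lowest chi-square per degree of freedom between libraries of a group was 6.59, so none was a duplicate.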

Additional observations from a re-analysis of the deposited data

Results flagged for a closer look

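In 7 of 69 sets of a member and a group of 4 to 6 libraries, 1 library lay far from the others by Dixon's criterion, which chance meets in about 5% of sets. Timp1 was 23.2 CPM in WT CD-HFD replicate 6 and 9.67 to 12.5 CPM in the others. Replicate 3 of the same group held 32.9 CPM of Timp3, against 3.10 to 14.2, and 47.8 CPM of Mmp2, against 13.9 to 24.6. In MlklKO control replicate 6, Mmp8 was 0 CPM, against 1.08 to 1.52. The remaining sets rest on few counts: Mmp8 was 1.04 CPM in MlklKO CD-LFD replicate 2 (7 counts), Mmp13 was 2.90 CPM in WT CD-LFD replicate 2 (16 counts), and Mmp13 was 1.76 CPM in MlklKO CD-LFD replicate 3 (11 counts).

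The Timp1 response to diet differed between MlklKO and WT in the edgeR interaction test, by -6.56 on the log2 scale for CD-LFD and -6.95 for CD-HFD. Both sizes and both calls depend on the 0 counts of the WT control libraries and are no measure of fold. Timp1 passed the count filter through the diet groups. On the diets themselves MlklKO differed from WT by -0.03 on CD-LFD (adjusted p = 0.989) and -0.41 on CD-HFD (adjusted p = 0.736), by edgeR.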

How the results depend on the processing

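Among 152 member differences no called direction reversed under any alternative. Counts of members called moved by over 1.5 times in 6 comparisons. Between MlklKO and WT control the count of 1 became 2 with RLE factors, 2 with library size only, 3 with the clock covariate, 3 with DESeq2 (which also tests Mmp8), 0 with the compared groups alone, 2 without WT control replicates 5 and 6 together, 2 without the WT libraries numbered 5 and 6 on all diets (chosen after seeing the data), and 1 to 3 when each library was left out. Between Ripk3KO and WT control 0 became 1 with library size only and 1 with DESeq2, and 0 to 1 when each library was left out. Between MlklKO and WT on CD-LFD 0 became 1 with library size only. Between CD-HFD and CD-LFD in Ripk3KO 3 became 5 with library size only and 1 to 3 when each library was left out, 1 without CD-LFD replicate 1, CD-LFD replicate 2 or CD-HFD replicate 5. For MlklKO by CD-LFD 1 became 2 with library size only, 2 with DESeq2, 3 without the WT pair and 1 to 3 when each library was left out. For MlklKO by CD-HFD 1 became 2 without the WT pair and 1 to 2 when each library was left out. Apart from the settings that leave out samples, genes or groups, the cause was not tested.

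Without the WT libraries numbered 5 and 6 on all diets the WT calls of Mmp15 on CD-LFD against control (0.52, adjusted p = 0.0845) and of Mmp14 on CD-HFD against CD-LFD (0.51, adjusted p = 0.0542) were lost, by edgeR. Scaling by library size only moved the median of all genes in WT CD-HFD against control from -0.07 to 0.43. With the replicate number as a block, the count of members called was 8 in Ripk3KO and 7 in MlklKO and WT for CD-LFD against control, in place of 6 in each. Same-numbered libraries of different groups had a median correlation of -0.0114 over 146 pairs, and 9 of 44 libraries correlated best with their own number, so the numbers are treated as names. Mmp8, Mmp9 and Mmp13 are limited by depth, with under 20 counts in most libraries.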
